A study of Mus musculus with 12 samples.

Results

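The cytosolic ribosomal proteins were followed in livers of mice lacking fumarylacetoacetate hydrolase. Members were the probe sets of the 430A array whose single gene symbol in GEO's platform annotation starts with Rpl or Rps and a digit, or is Rplp0, Rplp1, Rplp2 or Rpsa, with S6 kinase genes and pseudogene symbols left out. The rule took 100 of 22626 probe sets, standing for 48 of 12393 genes: 46 probe sets of 26 large subunit genes and 54 of 22 small subunit genes. A further 102 probe sets carried a ribosomal protein symbol together with other symbols and were left out. Some of them belong to genes that also have members, such as Rps6, Rps19, Rps25, Rps27, Rpl11 and Rpl12. Results for a gene rest on its member probe sets only. Many ribosomal protein genes therefore have no member probe set on 430A and were not analysed here. Rpl3, Rpl5, Rpl10, Rpl23 and Rplp1 are among them, as are Rpl9, Rpl13, Rpl15, Rpl17, Rpl21, Rpl24, Rps12, Rps13, Rps21 and Rps23. The family below means the members only.

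Each ribosome is built from ribosomal RNA and one copy of most of these proteins, with the small subunit reading the mRNA and the large subunit joining amino acids. In mammals the mRNAs of ribosomal proteins usually start with a run of pyrimidines, the 5' TOP motif, through which mTORC1 controls their translation, so that their output in liver is set to a large part after the mRNA is made. Free ribosomal proteins such as Rpl11 can bind Mdm2 and release p53, and most mouse ribosomal protein genes have processed pseudogenes whose sequence resembles the mRNA.

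The series measured total liver RNA of 10-week-old mice on 12 Affymetrix arrays, 9 of the 430A and 3 of the 430 2.0 design. The Fah p21 off group, titled double knockout, held mice without Fah, which acts last in tyrosine breakdown, and without p21, the cell cycle inhibitor encoded by Cdkn1a; they had been taken off NTBC, a drug that blocks tyrosine breakdown upstream of Fah, and given water for 14 days (2 livers on 430A and 2 others on 430 2.0). The Fah off group, titled single knockout, held 3 livers of Fah knockout mice that were also off NTBC for 14 days, all on 430A. The normal group pooled 4 conditions with 1 liver each: normal 1 was wildtype on water, normal 2 wildtype on NTBC, normal 3 a Fah knockout on NTBC and normal 4 a Fah p21 knockout on NTBC, the last measured on both designs. The labels name no strain, sex or targeted allele. The titles call the arrays biological replicates, and the p-values measure the spread between these livers only.

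Fah signal was 114 and 105 in Fah p21 off livers, 114, 101 and 108 in Fah off livers, and 6868 and 7120 in the wildtype livers of the normal group. The knockout livers on NTBC, normal 3 and normal 4, had 182 and 233. One Cdkn1a probe set read 9.5 and 8.2 in Fah p21 off livers, 990, 1862 and 1196 in Fah off livers and 14.7 to 51.4 in normal livers. A second read 1828 and 2060 in Fah p21 off livers, 2814, 3676 and 3936 in Fah off livers and 75.2 to 257.7 in normal livers. Only the first was thus at or below the normal level in Fah p21 off livers. On NTBC it did not set the p21 knockout apart, with 14.7 in normal 4 and 17.5 in normal 2. All 12 hepatocyte markers tested were detected, and their summed signal was 89702 to 93124 in Fah p21 off livers, 91119 to 100028 in Fah off livers and 143030 to 153173 in normal livers. In whole liver, fewer cells of a type and less RNA per cell cannot be told apart.

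To show the starts of some of the genes that the results turn on, 30 bases around the annotated start are given below (RefSeq, GRCm38.p6, 15 bases on each side). Capitals mark the longest run of C and T.
Rpl7a, chr2:26910792-26910821, + strand: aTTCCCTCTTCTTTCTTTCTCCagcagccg
Rplp2, chr7:141447636-141447665, + strand: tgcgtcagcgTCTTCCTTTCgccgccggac
Rps18, chr17:33955651-33955680, - strand: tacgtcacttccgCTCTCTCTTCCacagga
Rps27, chr3:90213634-90213663, - strand: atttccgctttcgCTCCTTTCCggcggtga
Rps27l, chr9:66946071-66946100, + strand: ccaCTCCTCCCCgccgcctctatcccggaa
Rpl22l1, chr3:28805493-28805522, + strand: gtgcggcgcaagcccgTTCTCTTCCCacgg

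The run reached 21 bases in Rpl7a, 11 in Rps18, 10 in Rplp2 and Rpl22l1, and 9 in Rps27 and in the first of both annotated starts of Rps27l. In Rpl7a, Rps18, Rplp2 and Rps27 the run spans the annotated start. In Rps27l it ends before the start, and in Rpl22l1 it begins after the first base. Starts not printed had shorter runs, with 4 and 5 bases at both starts of Rpl22 and 4 at the second of Rps27l. Of the 48 member genes 42 had a promoter entry, and 20 of them (47.6%) held a run of at least 8 pyrimidines within 20 bases of the start, against 18.4% of all 27025 genes of the table. The letters CGGAAG, the core bound by ETS factors such as Gabpa, stood on either strand of the 300-base window in 29 of 42 member genes (69.0%), against 18.8% of all genes. On the opposite strand these letters read CTTCCG, which can overlap a pyrimidine run, so the counts are not independent. Rps27l, Rps27, Rps18, Rplp2 and Rpl7a held CGGAAG and Rpl22l1 and Rpl22 did not, which says only that these letters are not in their windows.

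As a family the ribosomal protein mRNAs shifted little between the groups. Signals were taken as log2 of signal plus an offset of 9.9, the 10th percentile of all signals, and 83 member probe sets of 45 genes (41 large subunit, 42 small subunit) passed the filter on dim probe sets. Their mean log2 level was 11.02 and 10.95 in the Fah p21 off livers, against 10.92, 10.91 and 11.32 in the Fah off livers and 11.19, 11.12, 10.83 and 10.96 in normal 1 to 4. The group means were 10.98 ± 0.05 (SD, n = 2) in Fah p21 off, 11.05 ± 0.23 (n = 3) in Fah off and 11.02 ± 0.16 (n = 4) in normal livers. The groups overlapped, and their means differed by less than the SD of the Fah off livers or of the normal livers.

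The level of the large subunit genes was then set beside that of the small subunit genes in each liver. The large subunit mean minus the small subunit mean, which sets different probe sets side by side and has meaning only as it changes between livers, was -0.84 and -0.78 in Fah p21 off livers, -0.84, -0.81 and -0.89 in Fah off livers and -0.79, -0.78, -0.81 and -0.80 in normal livers. Its SD was 0.04 in Fah p21 off livers, 0.04 in Fah off livers and 0.01 in normal livers, beside SDs of the family mean of 0.05, 0.23 and 0.16, so in Fah off and normal livers the subunits differed less than the family level did.

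**Figure D1:**
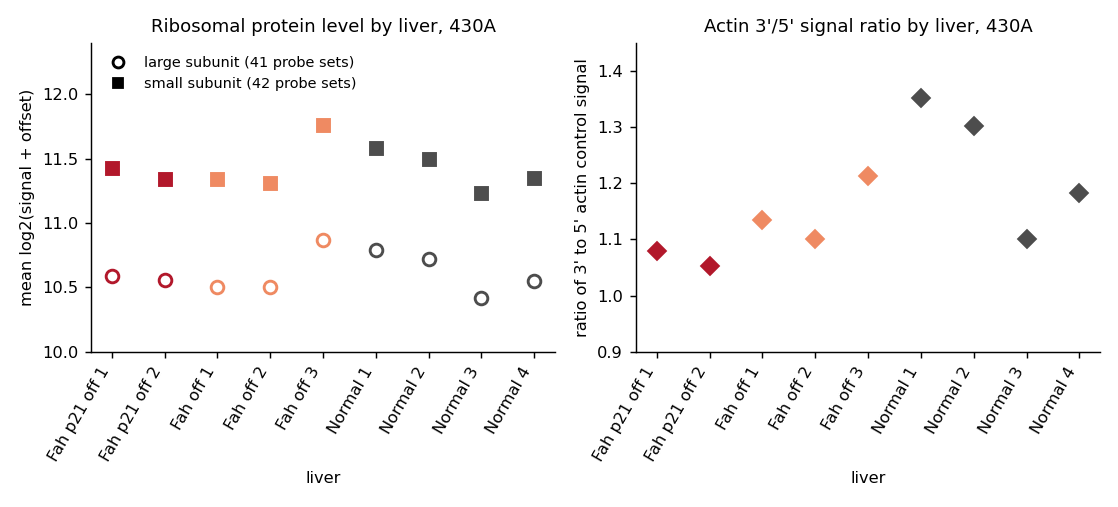
Left, mean log2(signal + offset) of the 41 large subunit (circles) and 42 small subunit (squares) probe sets tested, 1 point per liver on 430A. Right, the ratio of 3' to 5' actin control signal of the same arrays. Fah off 3, normal 1 and normal 2 are high for both subunits, and their actin ratios of 1.21, 1.35 and 1.30 are the 3 highest.

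Single livers stood apart within their groups. Fah off 3 was the highest Fah off liver in 71 of 83 members (85.5%), against 33.6% of all probe sets tested, and normal 1 was the highest normal liver in 55 members (66.3%), against 17.6%. The actin 3'/5' ratio, a control for RNA quality and labelling, was highest in Fah off 3, normal 1 and normal 2. These livers also had the highest family levels. The actin ratio was 1.08 and 1.05 in Fah p21 off livers and 1.14, 1.10 and 1.21 in Fah off livers. In normal 1 to 4 it was 1.35, 1.30, 1.10 and 1.18. The Gapdh 3'/5' ratio did not order the livers in this way. It was 0.82 and 0.76 in Fah p21 off livers and 0.76, 0.76 and 0.78 in Fah off livers. In normal 1 to 4 it was 0.86, 0.81, 0.88 and 0.805. The part of either ratio in the results was not tested. Within the normal group both knockout livers on NTBC lay below both wildtype livers in 61 of 83 members (73.5%), against 20.1% of all probe sets, with a median difference of -0.30 for members and 0.11 for all. The wildtype liver on water and the one on NTBC were both on the high side, and with 1 liver per condition these differences have no test.

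In Fah off livers against normal livers, a minority of ribosomal protein mRNAs changed, in both directions. With limma over all 9 arrays and Benjamini-Hochberg adjustment over all probe sets, 17 of 83 members passed at an adjusted p under 0.05 (20.5%), 11 higher and 6 lower, against 35.5% of the 15307 probe sets tested. The shares higher and lower were 13.3% and 7.23% of members, against 20.1% and 15.4% of all. The median log2 fold change was -0.01 for members and 0.02 for all, and only 4 members passed with a change of at least 2-fold (4.82%, against 14.8% of all). The median standard error was 0.16 for members and 0.19 for all, and why a smaller share of members passed was not tested. With quantile normalization 23 were higher and 5 lower (28 in all, median 0.16), and with scaling to a common median 8 were higher and 6 lower (median -0.09). The split by direction also moved with single livers: it was 9 higher and 10 lower without Fah off 3, and 3 were lower without Fah off 1 or without Fah off 2. With only the knockout livers on NTBC as normal it was 18 higher and 4 lower.

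In Fah p21 off livers against normal livers fewer members passed: 9 of 83 (10.8%), 5 higher and 4 lower, against 28.4% of all probe sets (17.7% higher and 10.7% lower). The median was -0.15 for members and 0.11 for all, and 2 members passed with at least 2-fold (2.41%, against 13.9%). Both Fah p21 off livers lay below all 4 normal livers in 21 members and above all of them in 8, while of all probe sets 19.0% lay below and 28.4% above. The negative direction of the median depended on the scaling: it was 0.15 under quantile normalization, with 15 members higher and 2 lower, and -0.33 under scaling to a common median, with 2 higher and 7 lower. These scalings moved the median of all probe sets to -0.02 and -0.08, and the counts of all probe sets higher and lower from 2716 and 1637 to 2327 and 2170 and to 1842 and 2428. With the knockout livers on NTBC alone as normal the median of the members was 0.01. Leaving out 1 liver moved the count of 9 to 2 without either Fah p21 off liver, 3 without normal 2, and 16 without Fah off 3; without normal 1, normal 4 or Fah off 1 it was 6.

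**Figure D2:**
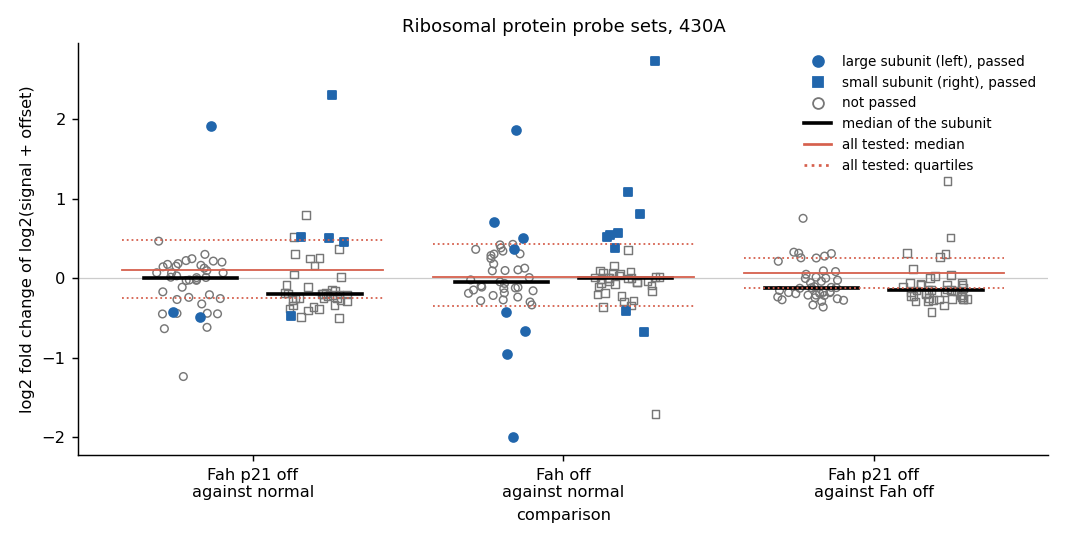
Log2 fold changes of log2(signal + offset) for the 83 member probe sets tested on 430A, large subunit at the left and small subunit at the right of each comparison; filled points passed at an adjusted p under 0.05. Black bars are subunit medians, red lines the median and quartiles of all 15307 probe sets. In both comparisons with normal most members lie within the quartiles of all probe sets, and the family median turns positive under quantile normalization. Against Fah off livers the member median, -0.147, lies below the lower quartile of all probe sets, -0.1235.

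No member passed between Fah p21 off and Fah off livers with limma (0 of 83, against 6 of 15307 or 0.0392% of all), and 2 had an unadjusted p under 0.05, 1 probe set of Rpl41 and 1 of Rps28. The log2 fold change was negative in 61 of 83 members (73.5%), against 40.8% of all, with a median of -0.15 for members and 0.06 for all. That median was -0.00 without Fah off 3 and -0.05 under quantile normalization. So the changes against normal described for one genotype below were not shown to differ from those in the other.

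By subunit, 4 of 41 large subunit members were higher (9.76%) and 4 lower (9.76%) in Fah off livers against normal livers, beside 20.1% higher and 15.4% lower over all probe sets. Of 42 small subunit members 7 were higher (16.7%) and 2 lower (4.76%), and 3 of these 7 are probe sets of 1 gene, Rps27l. In Fah p21 off livers against normal livers, 1 large subunit member was higher (2.44%) and 3 were lower (7.32%). Of the small subunit members 4 were higher (9.52%) and 1 was lower (2.38%). All of these shares lie below the 17.7% higher and 10.7% lower over all probe sets. The difference between the subunits in these counts was not tested. The median log2 fold change against normal was 0.01 for the large and -0.20 for the small subunit in Fah p21 off livers, and -0.04 and -0.00 in Fah off livers. The difference of 0.21 between the subunit medians in Fah p21 off livers was 0.06 with 1 probe set per gene and -0.09 under quantile normalization, so it depended on which probe sets were counted and how arrays were scaled.

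The ribosomal protein paralogs held several of the clearer changes. Rps27l, a paralog of Rps27 known as a target of p53, had 3 probe sets that all rose in Fah off livers. Its probe set 1450925_a_at read 4949 and 5676 in Fah p21 off livers, 5361, 5710 and 6680 in Fah off livers, and 4227, 4476, 4218 and 3564 in normal livers. All livers off NTBC were above all normal livers. In Fah off livers the log2 fold change was 0.52 ± 0.12 (SE; limma adjusted p = 0.00581), and the other 2 probe sets gave 0.54 and 0.39 (adjusted p = 0.00932 and 0.00873). The 3 values in Fah p21 off livers were 0.37, 0.46 and 0.31, of which the 0.46 of 1423254_x_at passed (adjusted p = 0.0442) and the others had adjusted p = 0.065 and 0.0529. Both of the other probe sets end in _x_at, which marks probes that may also bind related sequences such as those of Rps27.

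The single Rps27 member probe set showed no such shift, and 1 more, shared with Rps27rt, was left out by the rule. It read 352 and 371 in Fah p21 off livers, 314, 256 and 329 in Fah off livers, and 194, 287, 308 and 475 in normal livers, with log2 fold changes against normal of 0.26 ± 0.28 and -0.01 ± 0.24 (adjusted p = 0.537 and 0.976). On the member probe set the normal livers spanned the values of all other livers.

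Rpl22l1, the paralog that Rpl22 is known to repress in mice, fell in Fah off livers. It read 326 and 710.4 in Fah p21 off livers, 173, 255 and 500.5 in Fah off livers, and 1721, 1386, 589 and 1235 in normal livers. The lowest normal liver was normal 3, the Fah knockout on NTBC, which was below 1 Fah p21 off liver. The log2 fold change was -1.99 ± 0.42 in Fah off livers (3.98-fold lower; adjusted p = 0.00343) and -1.24 ± 0.47 in Fah p21 off livers (adjusted p = 0.0745), and the Fah p21 off minus Fah off difference was 0.75 ± 0.50 (adjusted p = 0.73). With both knockout livers on NTBC as normal the Fah off value was -1.57 (adjusted p = 0.0246), and with the genotype-matched one alone it was -1.04 and did not pass (adjusted p = 0.209).

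Rpl22 itself gave different answers by probe set. Its probe set 1448398_s_at read 242 and 261 in Fah p21 off livers, 249, 212 and 152 in Fah off livers, and 386, 292, 449.6 and 485 in normal livers, without overlap. In Fah off livers it changed by a log2 fold of -0.95 ± 0.21 (adjusted p = 0.00429) and in Fah p21 off livers -0.63 ± 0.23 (adjusted p = 0.0659). Its probe set 1416603_at read 952 and 716 in Fah p21 off livers, 746, 764 and 982 in Fah off livers, and 749, 883, 791 and 677 in normal livers, and its log2 fold changes were 0.10 and 0.09. The probe sets thus differed by over 1 on the log2 scale in Fah off livers, and which transcripts each one reads was not tested.

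Rps4l, a paralog of the X-linked Rps4x, rose in Fah off livers. It read 539 and 732 in Fah p21 off livers, 702, 731 and 898 in Fah off livers, and 647, 323, 353 and 222 in normal livers. The wildtype liver on water was the high one of the normal group and lay above 1 Fah p21 off liver. Rps4l had log2 fold changes of 1.09 ± 0.29 in Fah off livers (adjusted p = 0.0127) and 0.79 ± 0.33 in Fah p21 off livers (adjusted p = 0.0948). Rps4x gave -0.09 in both comparisons. Rpl7l1, tested with 2 probe sets, passed in neither, and Rpl3l and Rpl39l, paralogs best known from muscle and testis, read at most 30.7 and 17.3 in any liver on 430A and were too dim to test.

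Among core small subunit proteins, Rps19 was higher in both groups off NTBC. Rps19, which is needed for small subunit maturation and is mutated in human Diamond-Blackfan anaemia, read 2662 and 2312 in Fah p21 off livers, 2713, 2669 and 3812 in Fah off livers, and 2043, 1716, 1548 and 1638 in normal livers. All livers off NTBC lay above all normal livers. Rps19 gave a log2 fold change of 0.80 ± 0.15 in Fah off livers (adjusted p = 0.00194) and 0.52 ± 0.17 in Fah p21 off livers (adjusted p = 0.0452). The call in Fah p21 off livers was lost under 12 of 20 alternatives, with values of 0.33 to 0.68 and adjusted p up to 0.277, and that in Fah off livers was kept under all 20.

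Rps9, a protein of the decoding region, fell on its brightest probe set in Fah off livers, with 1843 and 2198 in Fah p21 off livers, 1618, 1533 and 1749 in Fah off livers, and 3191, 2854, 2190 and 2360 in normal livers. All Fah off livers lay below all normal livers, while 1 Fah p21 off liver lay within the normal range. Its log2 fold change was -0.68 ± 0.15 in Fah off livers (adjusted p = 0.00412) and -0.38 ± 0.17 in Fah p21 off livers (adjusted p = 0.116). A second tested Rps9 probe set ranged from 43.5 to 617 with no order by group and did not pass.

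Rps18, in the head of the small subunit, was called in opposite directions by different probe sets. Probe set 1455572_x_at read 4818 and 4288 in Fah p21 off livers, 4287, 4230 and 5974 in Fah off livers, and 3444, 3309, 3130 and 2958 in normal livers. Probe set 1448739_x_at read 4544 and 4585 in Fah p21 off livers, 5258, 4678 and 6524 in Fah off livers, and 7288, 6688, 5722 and 5757 in normal livers. The first was, in Fah p21 off livers, 0.50 ± 0.15 higher (adjusted p = 0.0306) and the second had a log2 fold change of -0.47 ± 0.15 (adjusted p = 0.038), so no direction is given for the Rps18 mRNA. The 19 genes with at least 2 probe sets tested had a median range of 0.22 between their probe sets in Fah off livers, and in 2 of them, Rpl22 and Rps9, the range was over 1.

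Rps20 fell on 1 probe set in Fah off livers, by 0.41 on the log2 scale (adjusted p = 0.0259). Its values were 2384 and 2626 in Fah p21 off livers, 2345, 2405 and 2632 in Fah off livers and 3795, 3413, 2757 and 3178 in normal livers. Rps6, the substrate of S6 kinases, had 1 dim member probe set tested, which did not pass. It read 228 and 302 in Fah p21 off livers, 232, 207 and 124 in Fah off livers and 179, 128, 171 and 268 in normal livers. A further 9 probe sets shared by Rps6 and Rps6-ps4 were left out by the rule, so the Rps6 mRNA is not judged from it. Rpsa, the laminin receptor and small subunit protein, had 0.36 ± 0.13 in Fah off livers, just outside the threshold (adjusted p = 0.0529). Rps14, tested with 2 probe sets, passed in no comparison.

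The largest rises of the family came from dim probe sets of Rps25 and Rpl12. All 4 normal livers read both below the filter level, the 40th percentile of each array (73.8 to 100.1), so both entered the test only through the livers off NTBC where they are high, and although they are among the calls counted above, their rises are given as a description. Rps25, known to serve initiation at internal ribosome entry sites, read 229 and 225 in Fah p21 off livers, 247, 302 and 395 in Fah off livers, and 42.4, 56.5, 10.9 and 64.0 in normal livers. Rpl12, at the base of the stalk that recruits elongation factors, read 197 and 188 in Fah p21 off livers, 197, 194 and 166 in Fah off livers, and 48.9, 27.2, 59.4 and 44.3 in normal livers. In both genes all livers off NTBC were well above all normal livers. For Rps25 the log2 fold change was 2.30 ± 0.43 in Fah p21 off livers and 2.73 ± 0.38 in Fah off livers (adjusted p = 0.00241 and 0.000246), and that of Rpl12 was 1.92 ± 0.26 and 1.87 ± 0.23 (adjusted p = 0.000316 and 9.86e-05). Without the filter the adjusted p was 0.00515 and 0.000625 for Rps25 and 0.000779 and 0.000264 for Rpl12. With the offset at the 25th percentile or with none, the values ranged from 1.73 to 2.66 and 2.12 to 3.10 for Rps25, and from 1.47 to 2.15 and 1.43 to 2.10 for Rpl12, in Fah p21 off and Fah off livers. Rps25 in Fah p21 off livers did not pass with the genotype-matched liver as normal (1.68; adjusted p = 0.0858). Each gene has this 1 member probe set, and other probe sets that share its symbol with further symbols were left out by the rule. What part of the transcript each member reads was not tested.

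**Figure D3:**
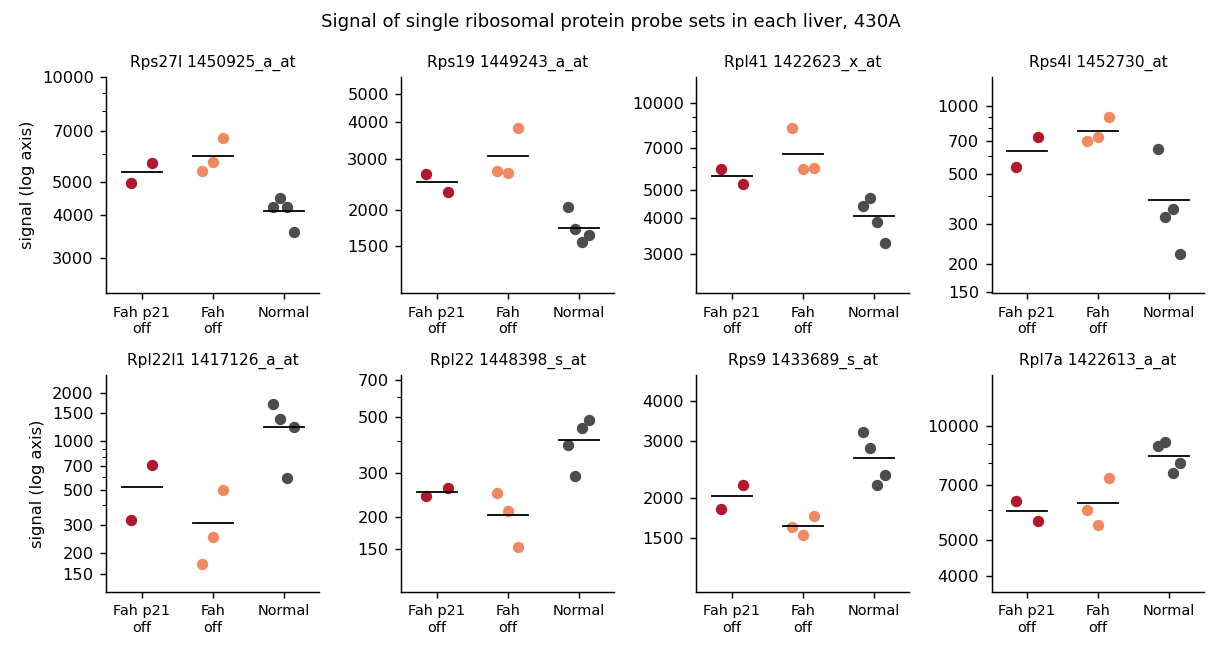
Signal (log axes that differ between panels) of 8 member probe sets in each liver on 430A; points are livers and bars mean signals of the groups. Rps27l, Rps19 and Rpl41 are higher, and Rpl22 and Rpl7a lower, in all livers off NTBC than in all normal livers.

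Among core large subunit proteins, Rpl41, a very short protein at the subunit interface, rose on 1 of its 3 tested probe sets. That probe set read 5942 and 5258 in Fah p21 off livers, 8221, 5928 and 5971 in Fah off livers, and 4411, 4697, 3899 and 3298 in normal livers. All livers off NTBC lay above all normal livers. The log2 fold change was 0.71 ± 0.15 in Fah off livers (adjusted p = 0.00406) and 0.47 ± 0.17 in Fah p21 off livers (adjusted p = 0.0678), and the Fah p21 off value did not pass. Of the other tested probe sets, the brighter 1455578_x_at gave -0.11 in Fah p21 off and 0.25 in Fah off livers and the dimmer 1454639_x_at gave 0.30 and 0.29, and none of these passed.

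Rpl7a, whose start carries the longest pyrimidine run shown above, fell in both groups. It read 6327 and 5613 in Fah p21 off livers, 5997, 5451 and 7270 in Fah off livers, and 8843, 9099, 7512 and 7990 in normal livers. The groups did not overlap, though Fah off 3 came close to normal 3. Its log2 fold changes were -0.48 ± 0.14 in Fah p21 off livers (adjusted p = 0.0218) and -0.43 ± 0.12 in Fah off livers (adjusted p = 0.0173). It was -0.01 and -0.12 under the alternative nearest to 0 in each comparison.

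Rpl10a, of the L1 stalk, fell in Fah off livers. It read 2929 and 3495 in Fah p21 off livers, 2344, 2368 and 3774 in Fah off livers, and 4718, 4633, 3626 and 4602 in normal livers. Fah off 3 lay above normal 3, so these groups overlapped. Rpl10a gave a log2 fold change of -0.66 ± 0.18 in Fah off livers (adjusted p = 0.0128) and -0.45 ± 0.20 in Fah p21 off livers (adjusted p = 0.12).

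Rpl11, the member known to bind Mdm2, passed in Fah p21 off livers and not in Fah off livers. It read 2728 and 2886 in Fah p21 off livers, 3374, 2988 and 3852 in Fah off livers, and 4271, 4006, 3480 and 3418 in normal livers. Both Fah p21 off livers were below every other liver. Its log2 fold change was -0.43 ± 0.14 in Fah p21 off livers (adjusted p = 0.043) and -0.16 ± 0.12 in Fah off livers (adjusted p = 0.359), and the difference between both, -0.27 ± 0.15, did not pass (adjusted p = 0.684).

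One Rpl37a probe set also fell in Fah p21 off livers, by 0.44 on the log2 scale, at an adjusted p that rounds to 0.05. Of the acidic stalk proteins, Rplp2 rose in Fah off livers by 0.51 ± 0.18 (adjusted p = 0.0446), with 5495 and 5080 in Fah p21 off livers, 6181, 5671 and 7691 in Fah off livers, and 5724, 5422, 3635 and 3782 in normal livers. The wildtype livers were high and overlapped the Fah off livers. Rplp0, its partner in the stalk, gave 0.07 ± 0.22 and 0.11 ± 0.19 in Fah p21 off and Fah off livers and did not pass. Rpl19, which bridges the subunits, rose by 0.37 ± 0.12 in Fah off livers (adjusted p = 0.0346), and Rpl13a, with 4 probe sets, passed in no comparison.

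Of the 17 calls in Fah off livers, 12 were lost under 2 or fewer of the 19 or 20 alternative settings, and 5 under 5 to 10 of 20 (Rpl10a 5, Rpl7a 6, Rps20 8, Rpl19 10 and Rplp2 10). Of the 9 calls in Fah p21 off livers only the dim Rpl12 and Rps25 were lost under 2 or fewer, and the other 7 were lost under 9 to 13 of 20. No call changed direction under these settings.

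On the 430 2.0 arrays, which were scaled apart and compare 2 other Fah p21 off livers with normal 4 alone, the rule took 106 of 45037 probe sets and 94 were tested. With limma 5 passed (5.32%), 3 higher and 2 lower, against 11.5% of all 26925 probe sets (7.71% higher and 3.8% lower), and the median was -0.03 for members and 0.07 for all. The fit had 1 residual degree of freedom and rests on 1 normal liver, which by its labels is the mouse of normal 4 on 430A, so the control is not independent and the p-values describe these 3 arrays. Under quantile normalization 8 were higher and 2 lower. Rps25 read 658 and 728 in Fah p21 off livers and 132 in normal 4, a log2 fold change of 2.35 ± 0.28 (adjusted p = 0.00281), and Rpl12 gave 2.06 ± 0.45 (adjusted p = 0.0283). Rpl41 on the same probe set as before was 0.89 ± 0.23 higher (adjusted p = 0.0494).

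The 2 lower ones were the Rpl22 pair. Rpl22l1 read 2340 and 1714 in Fah p21 off livers and 4315 in normal 4 (-1.11 ± 0.27; adjusted p = 0.0408), and Rpl22 on 1448398_s_at read 338 and 373 in Fah p21 off livers and 953 in normal 4 (-1.41 ± 0.27; adjusted p = 0.0176). The other Rpl22 probe sets gave 0.13 and -0.03 and did not pass. Rps27l had 0.43, 0.34 and 0.34 on its 3 probe sets and did not pass. The rule also took Rps19bp1 there, which is named for binding Rps19 and is no ribosomal protein; it gave -0.06.

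Genes that make and assemble ribosomes were higher more often than lower in livers off NTBC. Of 95 genes of ribosome assembly, rRNA processing and RNA polymerase I, 1 probe set each, 27 were higher and 2 lower in Fah p21 off livers (28.4% higher, against 17.8% of 9195 genes) and 40 were higher and 4 lower in Fah off livers (42.1%, against 19.7%). Their median log2 fold changes were 0.37 and 0.33. Counted in the same way, 3 of 45 ribosomal protein genes were higher and 3 lower in Fah p21 off livers, and 7 were higher and 4 lower in Fah off livers, while 11.5% and 16.5% of all genes were lower. In Fah p21 off livers the higher count of assembly genes was 18 under quantile normalization (18.9%, beside 15.2% of all probe sets) and 13 under scaling to a common median (13.7%, beside 12%), which is near the share of all. In Fah off livers it was 32 under both (33.7%, beside 19.2% and 17.4%). Of the 95 genes 7 (7.37%, beside 8.16% of all probe sets) met the filter on fewer than 2 normal livers, Nle1 and Sdad1 among them, and without the filter 26 and 35 of 100 were higher in Fah p21 off and Fah off livers. With 1 Fah p21 off liver left out, or with the 1 genotype-matched liver on NTBC as normal, a group held a single liver. The counts were then lower in both comparisons, and fewer of all probe sets passed too. The excess over the share of all shrank, also in Fah off livers, and was absent without the first Fah p21 off liver. On 430 2.0, with normal 4 alone as control, the median was 0.42 for rRNA processing and small subunit assembly. It was 0.24 for large subunit assembly and 0.25 for RNA polymerase I, beside 0.07 for all genes. The share called higher there exceeded that of all probe sets only for rRNA processing and small subunit assembly.

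For rRNA processing and the small subunit, 13 genes were higher and 2 lower of 35 in Fah p21 off livers, and 17 were higher and 2 lower in Fah off livers. Nop58, a core protein of the box C/D particles that methylate rRNA, read 298 to 378 in Fah p21 off livers, 287 to 419 in Fah off livers and 67.7 to 139 in normal livers, with log2 fold changes of 1.55 ± 0.26 and 1.61 ± 0.23 (adjusted p = 0.00129 and 0.000301). Nolc1, a nucleolar chaperone of such particles, rose by 0.88 and 0.72. Emg1, an rRNA methyltransferase, fell in both, with -0.85 and -0.87 (adjusted p = 0.0147 and 0.00532).

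For the large subunit, 11 of 44 assembly genes were higher in Fah p21 off livers, and 18 were higher and 1 lower in Fah off livers. Nle1, a factor of late pre-60S maturation, read 131 to 226 in Fah p21 off livers, 170 to 229 in Fah off livers and 22.8 to 71.8 in normal livers (log2 fold changes 1.80 and 1.94). Gnl3, or nucleostemin, gave 1.30 and 1.36, Rrs1 0.88 and 0.63, and Sdad1 0.79 and 1.01, all past the threshold. Nle1 and Sdad1 were below the filter level in all 4 normal livers and were tested only because of the livers off NTBC. Of 16 RNA polymerase I genes 3 were higher in Fah p21 off livers, and 5 were higher and 1 lower in Fah off livers. The polymerase subunit Polr1d gave 0.99 and 1.12 and the initiation factor Rrn3 0.83 and 1.01, both past the threshold, while Ubtf, which binds the rRNA promoter, gave -0.31 (adjusted p = 0.225) and -0.64 (adjusted p = 0.00864).

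**Figure D4:**
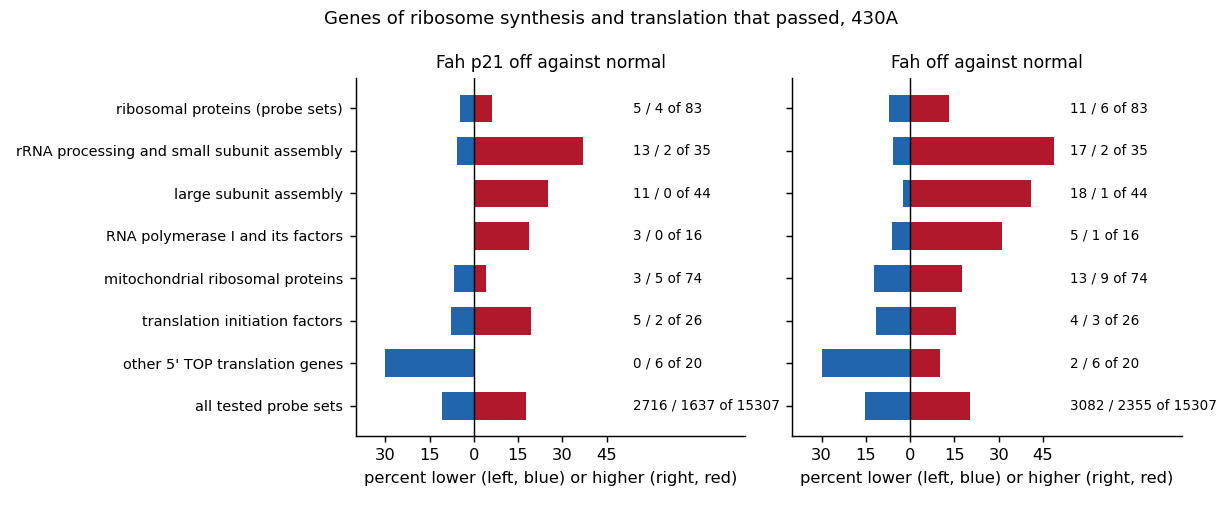
Share of tested genes lower (left, blue) or higher (right, red) at an adjusted p under 0.05 in Fah p21 off and Fah off livers against normal livers on 430A, with counts higher / lower of tested at the right; ribosomal proteins and the bottom row count probe sets, the other rows genes. Among large and small subunit assembly genes 11 of 44 and 13 of 35 are higher in Fah p21 off livers and 18 of 44 and 17 of 35 in Fah off livers; in Fah p21 off livers the number over all assembly lists falls under other scalings.

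Of 20 genes outside the family whose mRNAs also carry a 5' TOP start, 6 were lower in Fah p21 off livers, and 2 were higher and 6 lower in Fah off livers, with medians of -0.04 and -0.02. On 430 2.0, with normal 4 alone as control, these genes had a median of -0.01 in Fah p21 off livers, beside 0.07 for all genes. On 430A the share lower was 30% in each, beside 11.5% and 16.5% of all genes. Under quantile normalization this share was 20% in Fah off livers, near the 17.9% of all probe sets. Naca, a chaperone of nascent chains, read 2231 to 2369 in Fah p21 off livers, 2137 to 2605 in Fah off livers and 3031 to 4247 in normal livers (-0.70 in both; adjusted p = 0.00692 and 0.00255). The elongation factor Eef2 gave -0.54 and -0.57, Eef1d -0.62 and -0.65, and the initiation factor Eif4b -0.53 and -0.63, all past the threshold. In Fah p21 off livers the count of 6 was 3 under quantile normalization, with 2 others higher, and 0 without the second Fah p21 off liver or with the genotype-matched liver alone as normal.

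Of 26 initiation factors 5 were higher and 2 lower in Fah p21 off livers (19.2% and 7.69%, beside 17.8% and 11.5% of all genes), and 4 were higher and 3 lower in Fah off livers (15.4% and 11.5%, beside 19.7% and 16.5%), shares near or below those of all genes. Eif4ebp1, which holds back the cap-binding protein Eif4e, rose by 1.12 ± 0.17 and 1.33 ± 0.15 (adjusted p = 0.000638 and 5.8e-05). Eif6, which keeps the subunits apart until the large one is mature, rose by 0.65 and 0.71. Of 74 mitochondrial ribosomal proteins 3 were higher and 5 lower in Fah p21 off livers (4.05% and 6.76%), and 13 were higher and 9 lower in Fah off livers (17.6% and 12.2%), all below the shares of all genes, with Mrpl15 higher (1.02 and 1.15) and Mrps24 lower (-1.02 and -0.99) in both.

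In the mTORC1 and S6 kinase list of 13 genes, 1 was higher and 3 lower in Fah p21 off livers (7.69% and 23.1%), and 2 were higher and 3 lower in Fah off livers (15.4% and 23.1%), so few genes that nothing is read from the shares beside those of all genes. Ddit4, an inhibitor of mTORC1, read 989 to 1101 in Fah p21 off livers, 988 to 1050.3 in Fah off livers and 190.0 to 290 in normal livers (2.07 and 2.03; adjusted p = 1.32e-05 and 3.05e-06). Deptor, which also inhibits mTOR, was 2.90-fold lower in Fah p21 off and 2-fold lower in Fah off livers, and Pdcd4, an S6 kinase target that blocks Eif4a, gave -0.81 and -0.63, all past the threshold.

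Of 11 genes around Myc and Mdm2, 3 were higher and 1 lower in Fah p21 off livers (27.3% and 9.09%), and 2 were higher and 1 lower in Fah off livers (18.2% and 9.09%), and the same limit holds. Myc, an activator of ribosome synthesis genes, rose by 1.57 ± 0.39 and 1.88 ± 0.34 (adjusted p = 0.0111 and 0.00142), and Mdm2, the p53 ligase, by 1.99 and 1.81. Gabpa, the ETS factor named above for the letters CGGAAG, fell with -0.65 and -0.81 (adjusted p = 0.0395 and 0.00589). None of the genes of these lists passed between Fah p21 off and Fah off livers.

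Markers of some other cell types moved beside these results. Of all genes 17.8% were higher and 11.5% lower in Fah p21 off livers, and 19.7% and 16.5% in Fah off livers. Of 15 proliferation markers tested 15 were higher in Fah p21 off livers and 5 in Fah off livers, with summed signals of 7228 to 17666 in Fah p21 off, 3298 to 3657 in Fah off and 1704 to 1810 in normal livers. Of these 15, 3 were also higher in Fah p21 off than in Fah off livers. Aurkb, Birc5, Ccnb2, Cdk1, Mcm3, Mcm6, Mki67, Top2a and Ube2c met the filter level in no normal liver. They entered the test only through livers off NTBC, so their calls are given as a description. Of 9 cholangiocyte markers 8 were higher and 1 lower in each group. Bicc1, Cldn4, Epcam, Krt23, Prom1 and Sox9 of this list met the filter on fewer than 2 normal livers, so the same limit holds. Of 12 hepatocyte markers 10 were lower in Fah p21 off and 11 in Fah off livers. Macrophage markers (11 and 5 of 17 higher) and matrix markers (10 and 3 of 17 higher) summed to 17092 to 18335 and 12230 to 13503 in Fah p21 off livers, 13181 to 16380 and 7648 to 11043 in Fah off livers, and 8119 to 14124 and 6136 to 7002 in normal livers. The matrix share higher in Fah off livers, 17.6%, was near that of all genes. Fcgr1, Marco, Col1a1, Lrat, Pdgfrb and Timp1 of these lists also met the filter on fewer than 2 normal livers. Of 13 endothelial markers 1 was higher in Fah p21 off livers (7.69%), and 1 was higher and 1 lower in Fah off livers (7.69% each). These shares lie below those of all genes. Of 7 lymphocyte markers 2 were higher in Fah p21 off (28.6%) and 1 in Fah off livers (14.3%), too few to read a share from. Of 4 erythroid markers 1 was higher and 2 lower in each group, with median log2 fold changes of -0.95 and -0.96. The 6 neutrophil markers tested had medians of -0.19 and -0.40 in Fah p21 off and Fah off livers and did not pass. No marker of these lists read 0 in any liver, and their part in the ribosomal protein and assembly results was not tested.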

How the data were processed

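The deposited files hold linear intensity signals, 1 for each probe set, which the submitters' processing notes credit to MAS5 in GCOS 1.4.0.036; RNA came from 10 mg of liver per the labels' protocols. Trimmed means of signal lay between 347.5 and 348.8 on 430A, so arrays had been scaled alike. Arrays give no read depth, and their number limits the precision. Control probe sets (64 per design) were left out. Log2(signal + offset) used the 10th percentile of signals as offset (9.9 and 3.8), so fold changes of dim probe sets are understated. Tests covered probe sets that reached the 40th percentile of their array in 2 or more arrays and used limma 3.58.1 in R 4.3.3 (lmFit, eBayes with intensity trend), 1 fit per design, with 6 residual and 5.01 prior degrees of freedom on 430A and 1 and 6.04 on 430 2.0. Adjusted p-values are Benjamini-Hochberg over all tested probe sets. The code was tested on simulated data. A list gene was represented by its brightest probe set. All 100 member probe sets matched RefSeq by Entrez identifier. No pair of 430A arrays shared over 0.407% of identical values. Named were members that passed, up to 10 per direction and comparison, paralog pairs and other members set by name, genes whose probe sets disagreed, and up to 4 passing genes per list. The members and lists were chosen with earlier results of these data known. Alternatives changed offset, filter, scaling, limma settings, control livers, probe sets and single livers. Figures were drawn with matplotlib 3.10.9.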

Additional observations from a re-analysis of the deposited data

Results flagged for a closer look

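In the normal group Rpl10a (1431177_a_at) read 3626 in normal 3, the Fah knockout liver on NTBC, while the other 3 normal livers lay between 4602 and 4718, a gap of 0.906 of the group's range on the log2 scale. In all, 39 values were tested in this way, and chance flags about 1 in 20.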

How the results depend on the processing

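The alternatives were fewer or more probe sets, other offsets and scalings, other limma settings, other control livers and leaving out single livers. The count of members that passed in Fah off livers, 17, was 28 under quantile normalization, 11 with the replicate block, 5 with the genotype-matched liver as normal, 11 of 45 with 1 probe set per gene (24.4%) and 10 of 43 without probe sets ending in _x_at or _s_at (23.3%), beside 17 of 83 (20.5%). The count in Fah p21 off livers, 9, was 3 without the filter, 17 under quantile normalization, 2 without the intensity trend, 2 with the replicate block, 4 with the genotype-matched liver, and 2 to 16 with single livers left out. On 430 2.0 the count of 5 was 1 without the filter, 10 under quantile normalization, 1 without the trend, 3 of 47 with 1 probe set per gene and 3 of 53 without _x_at and _s_at probe sets. The member median was 0.19 in Fah off livers with the genotype-matched liver, and in Fah p21 off livers 0.15 under quantile normalization and -0.33 under median scaling. The large minus small difference in Fah off livers, -0.04, was -0.108 under quantile normalization, 0.0477 with the replicate block, -0.0876 without _x_at and _s_at probe sets, 0.0164 without paralogs, and -0.0794 to 0.0477 with single livers left out. In Fah p21 off livers, 0.21, it was -0.0892 under quantile normalization, 0.247 with the block, 0.095 with knockout livers on NTBC and 0.0981 with the genotype-matched one as normal, 0.0582 with 1 probe set per gene, 0.062 without _x_at and _s_at probe sets, and 0.142 to 0.246 with single livers left out. Between Fah p21 off and Fah off livers, 0.03, it was -0.0194 under quantile normalization.

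The assembly count in Fah off livers was 12 with the genotype-matched liver; in Fah p21 off livers it was 13 under median scaling, 12 with the genotype-matched liver and 9 to 29 with single livers left out. Lower 5' TOP genes numbered 2 in Fah off livers with the genotype-matched liver, and in Fah p21 off livers 3 under quantile normalization, 0 with the genotype-matched liver and 0 to 6 with single livers left out. With the genotype-matched liver, or without 1 Fah p21 off liver, a group held a single liver, and fewer of all probe sets rose or fell as well. The assembly and TOP alternatives were chosen after seeing the data. The cause was not tested. Replicate numbers in the titles did not pair the livers: same-numbered livers correlated between -0.28 and 0.07, so the block results only share a number. With 2 to 4 livers per group and 1 residual degree of freedom on 430 2.0, a p that misses the threshold does not show equal levels. No call on a named member changed direction under any setting.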
